A study of Rattus norvegicus with 84 samples.

Results

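Plasma EV miRNAs were compared between rats 4 days after stroke and healthy rats. The comparison used 6 libraries of the 84 in the series, chosen by their labels and not by any measured value, with 3 rats in each group. Extracellular vesicles (EVs) are membrane-bound particles that cells release into body fluids, and miRNAs are short RNAs that they carry. The stroke rats, called the control group by the study because they received no cells, were adult male wild-type Sprague-Dawley rats that had a transient occlusion of the middle cerebral artery for 90 min. At 3 days their carotid artery was exposed again and saline was injected, and plasma was taken at 4 days. The healthy rats were of the same strain and had no operation, so stroke, surgery and saline injection cannot be told apart in this comparison. The other 15 plasma libraries came from control rats at 10 and 31 days and from rats given human neural stem cells (hNSCs) at 3 days and sampled at 4, 10 and 31 days, with 3 rats in each group. The labels write serum in one place and plasma elsewhere.

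A miRNA is cut from a hairpin transcript, and either arm of the hairpin, named 5p or 3p, can be loaded into an Argonaute protein. Bases 2 to 8 of the loaded strand form the seed, which pairs with messenger RNAs and lowers their translation and stability. Plasma holds miRNAs from red cells, platelets, white cells, endothelium and liver, and only small amounts from brain. Some miRNAs are typical of 1 source, such as miR-122 of liver, miR-451 of red cells, miR-150 and miR-342 of lymphocytes and miR-9, miR-124, miR-129 and miR-137 of neural tissue.

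The mature sequences of the miRNAs on which the results turn follow, because the arm and the seed identify what was counted. They are taken from the sequence file deposited with the counts, 5′ to 3′ in DNA letters, and the seed is in capitals. The first 6 were higher after stroke or are the partner arm of one that was.
miR-9a-3p: aTAAAGCTagataaccgaaagt
miR-9a-5p: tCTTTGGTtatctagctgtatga
miR-129-5p: cTTTTTGCggtctgggcttgc
miR-136-3p: cATCATCGtctcaaatgagtct
miR-137-3p: tTATTGCTtaagaatacgcgtag
miR-217-5p: tACTGCATcaggaactgactgg
The next 6 are both arms of 3 hairpins whose arms were lower after stroke.
miR-342-3p: tCTCACACagaaatcgcacccgt
miR-342-5p: aGGGGTGCtatctgtgattgag
miR-150-5p: tCTCCCAAcccttgtaccagtg
miR-150-3p: cTGGTACAggcctggggga
miR-140-5p: cAGTGGTTttaccctatggtag
miR-140-3p: tACCACAGggtagaaccacgg
Of the 309 miRNAs tested, 280 had a RefSeq entry of the same name (GRCr8), and all 280 deposited sequences were identical to it. RefSeq places miR-9a-3p in 3 genes, Mir9-3 at chr1:142849454-142849475, Mir9-2 at chr2:15933344-15933365 and Mir9-1 at chr2:175975025-175975046, all on the plus strand of GRCr8 and inside the host transcripts Mir9-3hg, Mir9-2hg and LOC100911992. The 3 copies give the same mature sequence, so the counts cannot be assigned to one of them. RefSeq places miR-342-3p at chr6:133329715-133329737 on the plus strand, within Evl, and miR-140 within Wwp2.

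The 6 libraries held 429365 to 1648698 unique molecular identifiers (UMIs, tags that count each molecule once), of which known miRNAs took 95.5% to 98.7%. Between 362 and 457 known miRNAs were detected per library. Levels are given as CPM, the UMIs of a miRNA scaled to a common total of known miRNA UMIs per library and then by the TMM method, and 3 UMIs correspond to 1.87 to 7.32 CPM before the TMM step. Shares of lists are percent of known miRNA UMIs without the TMM step, so they are not on the CPM scale of single miRNAs. Healthy replicate 2 stood apart, with a TMM factor of 0.697 against 0.938 to 1.20 in the other 5 libraries and 52.1% of its UMIs on the let-7 family against 25.0% to 42.6%. Pearson r of log2 CPM across the 309 miRNAs, which are not independent replicates, was 0.932 to 0.974 within the stroke group, 0.929 to 0.962 within the healthy group and 0.908 to 0.962 between the groups. The libraries carried miRNAs typical of plasma rather than brain. The erythroid list took 8.09% to 28.8% of UMIs in these libraries and 0.965% to 2.62% in the 21 brain EV libraries, and the neural list took 0.307% to 1.12% against 10.6% to 19.1%.

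One miRNA passed the test after stroke, miR-9a-3p, and it was higher. A miRNA was called when edgeR's quasi-likelihood test gave a Benjamini-Hochberg adjusted p under 0.05 and the change was over 1.5-fold. By this rule 1 of 309 miRNAs was called higher (0.324%) and 0 were called lower (0%). With DESeq2, 3 were called higher, which were miR-9a-3p, miR-136-3p and miR-190a-5p, and 1 was called lower, miR-342-3p. At an unadjusted p under 0.05 and over 1.5-fold, 19 were higher (6.15%) and 31 lower (10.0%), and the groups did not overlap for 36 miRNAs that were higher (11.7%) and 48 that were lower (15.5%). The split between higher and lower depended on the scaling. It was 28 higher and 20 lower with the size factors of DESeq2, and 34 higher and 9 lower with library totals, where the median log2 fold change of all miRNAs was 0.15 and 0.33 in place of −0.01. On simulated counts for this comparison over 309 miRNAs, the test recovered 22.4% of 2-fold, 73.1% of 4-fold and 100% of 16-fold changes. In these counts 67, 67 and 66 miRNAs carried these changes, 109 were unchanged, and the scaling factors were given. Of the 109 unchanged, 3 were called. A Benjamini-Hochberg cut is looser when many miRNAs change, so these rates may overstate recovery in the real data.

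**Figure D1:**
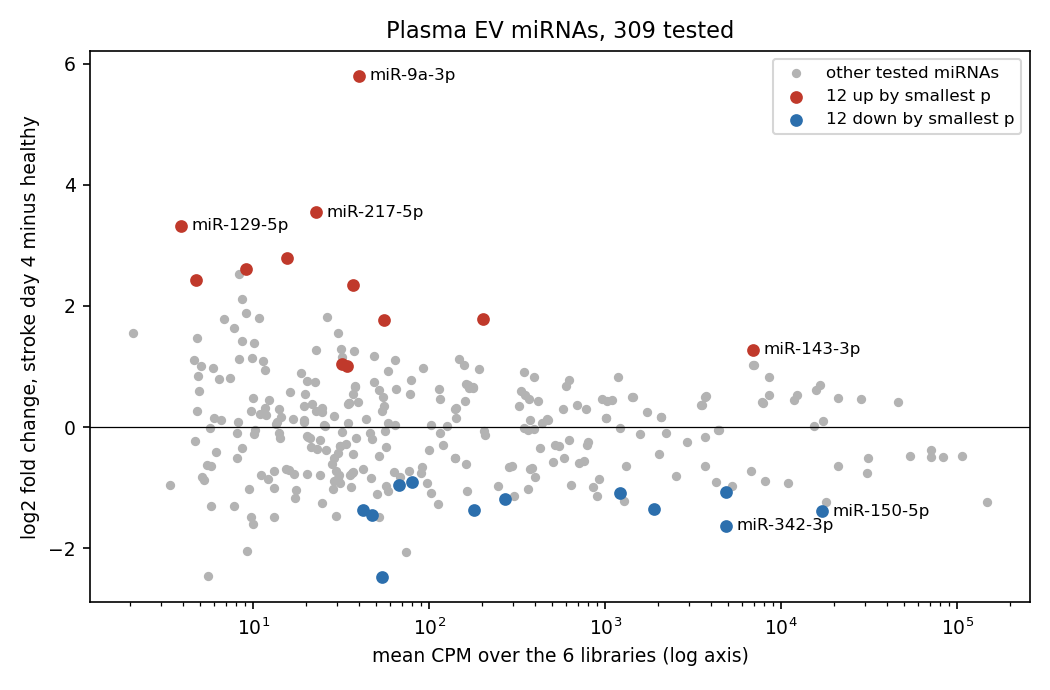
Log2 fold change (control group at 4 days minus healthy) of 309 plasma EV miRNAs against their mean CPM over the 6 libraries, on a log axis. Red points are the 12 with the smallest p that were higher and blue points the 12 with the smallest p that were lower, and miR-9a-3p at 5.80 is the one that was called.

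miR-9a-3p is the strand of the miR-9 hairpin that brain cells keep at the lower level, and the hairpin is typical of neural progenitors and neurons. Its level was 94.5, 79.2 and 61.4 CPM in the 3 stroke libraries and 1.72, 0.895 and 1.22 CPM in the 3 healthy libraries. The groups did not overlap, and every healthy library held fewer than 3 UMIs of it. The counts behind these levels were 188 UMIs over the stroke group (82, 39 and 67) and 4 over the healthy group (2, 1 and 1). The ratio of the summed counts was 59.4 with an exact 95% counting interval of 22.8 to 220, which covers counting error only. The fitted log2 fold change was 5.80 (standard error 1.02, n = 3 per group, edgeR adjusted p = 0.00503). Without healthy replicate 2 the log2 fold change was 5.57 and the adjusted p was 0.0674, so the call rested on that library, and without any one of the other 5 libraries the miRNA was still called. It was also not called when predicted miRNAs entered the fit (adjusted p = 0.338) or with limma on log2(TPM + 0.1) (adjusted p = 0.0730).

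The 5p arm of the same hairpin, the main miR-9 strand in brain, was at 34.6, 62.9 and 60.5 CPM after stroke and at 18.1, 15.2 and 33.0 CPM in healthy rats. These groups did not overlap either, although the highest healthy library was close to the lowest stroke library. The log2 fold change was 1.26 (standard error 0.57) and did not pass the test (edgeR adjusted p = 0.269). The log2 fold changes of the 2 arms differed by 4.54, which was the largest absolute difference between arms among 69 hairpins with both arms tested, ahead of miR-369 at 2.05. In 52 of these 69 hairpins the 2 arms had the same sign of change and in 17 the opposite sign.

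The share of miR-9a UMIs on the 3p arm was 73.2%, 55.7% and 50.4% in the stroke libraries and 8.70%, 5.56% and 3.57% in the healthy ones. The exact 95% intervals were 64.0 to 81.1%, 43.3 to 67.6% and 41.6 to 59.2% after stroke and 1.07 to 28.0%, 0.141 to 27.3% and 0.0904 to 18.3% in healthy rats, so the intervals of the groups did not meet. The mean share was 59.8% ± 11.9 (SD, n = 3) against 5.94% ± 2.58 (exact permutation test, two-sided, p = 0.1, the smallest that 3 against 3 allows). In the 21 brain EV libraries the share lay between 6.56% and 13.8%, and in the brain libraries of the same 3 stroke rats between 11.2% and 12.4%. Of the healthy plasma shares 1 lay within the brain range and 2 under it, and the stroke shares lay above it in every library. The arms may differ in how well they enter a library, so the share is compared here between libraries and is not a ratio of molecules.

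**Figure D2:**
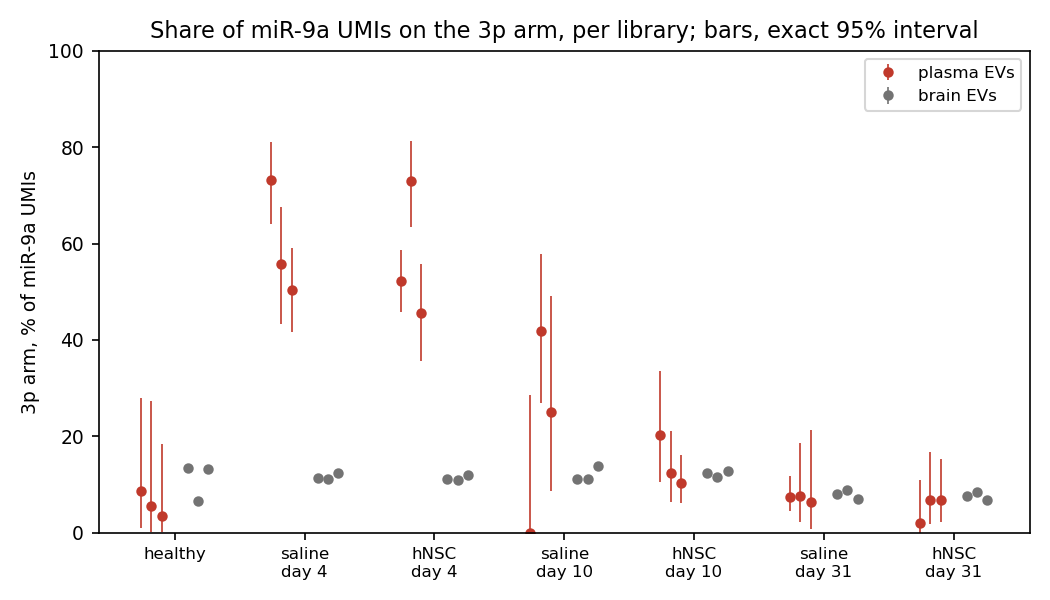
Percent of miR-9a UMIs that belong to the 3p arm, in each plasma library (red) and each brain library (grey) of the 7 groups, with exact 95% binomial intervals that cover counting error only. Plasma libraries at 4 days lie between 45.5% and 73.2%, and all 21 brain libraries lie between 6.56% and 13.8%.

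The other 3 rats with stroke sampled at 4 days had received hNSCs and were compared with the same healthy libraries. Their miR-9a-3p levels were 151, 166 and 35.2 CPM, and the 3p share was 52.2%, 73.1% and 45.5%. The study reports human mRNAs in plasma EVs of transplanted rats, and sequences shared with rat for part of the miRNAs in hNSC EVs. Human and rat UMIs were not separated here, and the part of the grafted cells in the miR-9a-3p levels was not tested. These rats are therefore not a second test of stroke alone. Between them and healthy rats the log2 fold change of miR-9a-3p was 6.37 (standard error 1.03, edgeR adjusted p = 0.00171). In that comparison 3 of 309 miRNAs were called higher (0.971%) and 0 lower (0%), namely miR-9a-3p, miR-129-5p and miR-208a-3p, and at an unadjusted p 20 were higher and 25 lower. In control rats the level was 0, 25.3 and 6.98 CPM at 10 days and 8.93, 3.80 and 1.85 CPM at 31 days. The share was 0%, 41.9% and 25.0% at 10 days, from 11, 43 and 20 UMIs, and 6.45% to 7.69% at 31 days. The drop of miR-9a-3p between 4 and 10 days was 2.91 on the log2 scale (−2.91, standard error 0.83) and did not pass the test (edgeR adjusted p = 0.113). No miRNA was called at 10 days against 4 days (0% in each direction, with 21 higher and 52 lower at an unadjusted p), at 10 days against healthy (0% in each direction, with 9 higher and 14 lower at an unadjusted p) or at 31 days against healthy (0% in each direction, with 26 higher and 25 lower at an unadjusted p).

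In brain EVs miR-9a-3p was abundant and was not called with stroke. It was at 6616, 7649 and 9904 CPM in the stroke rats and 11199, 5570 and 10967 CPM in the healthy rats, and the groups overlapped. The log2 fold change was −0.20 (standard error 0.24, edgeR adjusted p = 0.616), in a comparison that called 27 of 350 miRNAs higher (7.71%) and 24 lower (6.86%). The difference between the plasma and the brain effect, tested as an interaction with the rat as a term, was 6.15 for miR-9a-3p (standard error 1.02, edgeR adjusted p = 0.00107). Brain and plasma libraries of a group with equal replicate number were taken as 1 rat, which the sample titles do not state. Of 409 miRNAs, 1 was called higher (0.244%) and 0 lower (0%) in this test of the difference, with 26 higher and 30 lower at an unadjusted p. The miR-9a-3p difference was called without any one of the 6 rats.

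**Figure D3:**
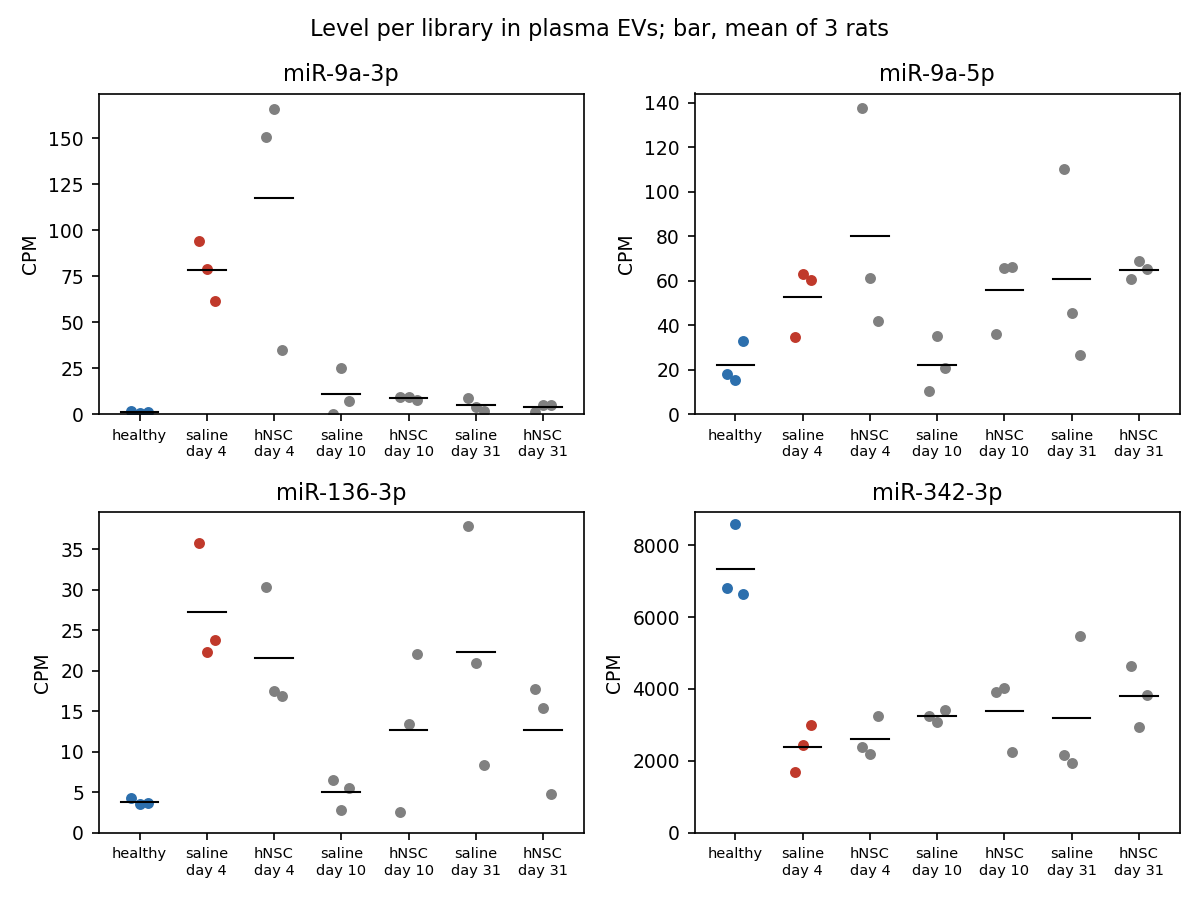
CPM per library of 4 miRNAs in plasma EVs of the 7 groups, with healthy in blue, the control group at 4 days in red and the other groups in grey; black bars are means of 3 rats. miR-9a-3p is at 61.4 to 94.5 CPM in the control group at 4 days and under 2 CPM in healthy rats, while miR-342-3p is at 6653 CPM or more in the 3 healthy libraries and lower in all 18 others.

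Other miRNAs typical of neural tissue were mostly scarce in plasma. miR-129-5p, which is abundant in neurons, was at 9.22, 4.06 and 8.25 CPM after stroke and at 0.862, 0.895 and 0 CPM in healthy rats. These levels rest on 19 and 2 UMIs per group, with a ratio of 12.0 (exact 95% counting interval 2.90 to 106). Its log2 fold change was 3.32 (standard error 0.85) and did not pass the test (edgeR adjusted p = 0.0759). miR-137-3p, a regulator of neuronal maturation, was at 4.61, 14.2 and 5.50 CPM against 0.862, 0.895 and 2.44 CPM, with 17 and 4 UMIs and a ratio of 5.37 (exact 95% counting interval 1.75 to 21.9). Neither overlapped between groups, and miR-137-3p was not called (log2 fold change 2.42, standard error 0.80, edgeR adjusted p = 0.208). Both were at or near 0 in control rats at 10 days, where miR-129-5p was at 0.931, 0 and 0 CPM and miR-137-3p at 0, 0 and 1.40 CPM. At 31 days miR-129-5p was at 7.35, 10.5 and 4.62 CPM and miR-137-3p at 12.6, 8.55 and 3.70 CPM, within or near the range at 4 days. In brain EVs of the 6 rats both were far more abundant, miR-129-5p at 1018 to 1529 CPM and miR-137-3p at 2429 to 4020 CPM, with log2 fold changes of −0.11 (standard error 0.19) and −0.26 (standard error 0.23).

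miR-124-3p, the most specific miRNA of mature neurons, gave 0, 2 and 4 UMIs in the stroke libraries and 0 in each healthy library, and was too rare to be tested. In the brain EV libraries of all groups it gave 670 to 3798 UMIs. Of the 22 miRNAs in the neural list, 13 were tested, of which 8 had a positive and 5 a negative log2 fold change, with a median of 0.55 against −0.01 over all miRNAs tested. Scarce members pass the filter more easily when they are high in 1 group, so these counts and the median are a description. The called member was miR-9a-3p. On the negative side miR-488-3p had a log2 fold change of −2.05 (standard error 0.87, edgeR adjusted p = 0.230), and miR-128-3p, the most abundant of the list, was at −0.97 (standard error 0.71). The summed level of the list was 0.465% to 0.547% of UMIs after stroke and 0.307% to 1.12% in healthy rats, where the highest value was that of replicate 2. This sum is mostly miR-128-3p, which had 31935 UMIs over the 6 libraries, against 2858 for miR-7a-5p and 192 for each arm of miR-9a. It therefore says little about the scarce members. The neuronal mRNA list in the same plasma EV samples also overlapped between groups, at 63.7 to 103 CPM after stroke and 37.5 to 112 CPM in healthy rats.

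**Figure D4:**
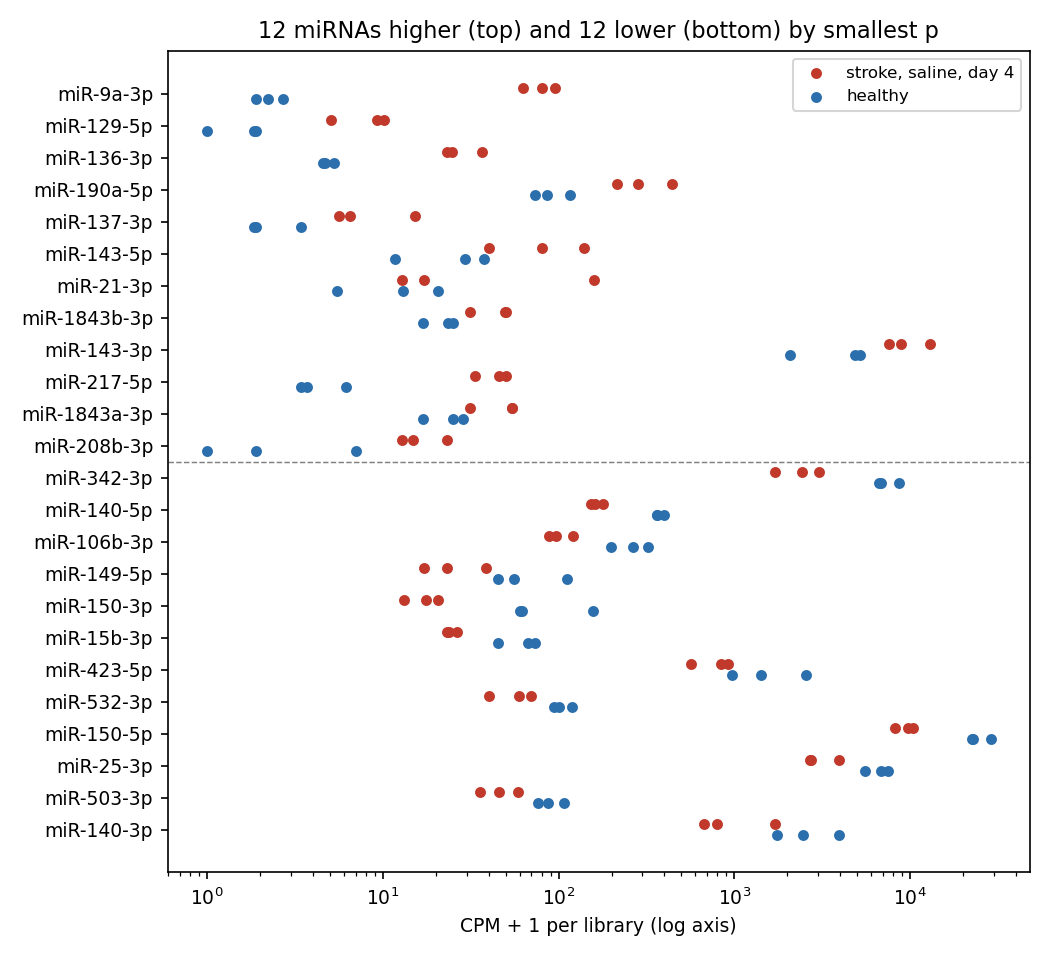
CPM + 1 per library on a log axis for the 12 miRNAs with the smallest p that were higher after stroke (above the dashed line) and the 12 that were lower (below it); red is the control group at 4 days and blue is healthy, 3 libraries each. The groups overlap for miR-21-3p, where 1 stroke library at 158 CPM stands apart, and for none of the other 23. These miRNAs were picked by p in the same libraries, so separation is largely built in. Over all 309 miRNAs the groups did not overlap for 11.7% that were higher and 15.5% that were lower. Only miR-9a-3p was called.

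On the higher side miR-136-3p was next by p after miR-9a-3p and miR-129-5p, and was not called. It comes from the imprinted Dlk1-Dio3 region, where a long run of miRNA genes is expressed from the maternal chromosome, mainly in brain and embryo. Its level was 35.7, 22.3 and 23.8 CPM after stroke and 4.31, 3.58 and 3.66 CPM in healthy rats. Every stroke library was above every healthy one, with a log2 fold change of 2.79 (standard error 0.72, edgeR adjusted p = 0.0759), and it was called with DESeq2 and in a fit of only the 6 libraries. In brain EVs of the same rats it rose (log2 fold change 0.96, standard error 0.27, edgeR adjusted p = 0.0222), from 782 to 1025 CPM in healthy rats to 1542 to 1915 CPM after stroke. In plasma of control rats it was at 6.52, 2.82 and 5.59 CPM at 10 days and at 37.8, 20.9 and 8.32 CPM at 31 days.

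Of 50 listed miRNAs of the Dlk1-Dio3 region, 48 had a RefSeq position, all of them within 282 kb of chromosome 6 (chr6:134298094-134579828, GRCr8). In the 6 libraries 42 of the 50 were detected and 15 were abundant enough to be tested. All 15 had a positive log2 fold change, from 0.54 for miR-431 to 2.79 for miR-136-3p, with a median of 1.17 against −0.01 over all miRNAs tested, and 15 of 15 were positive with each of the 3 scalings. Without stroke replicate 3, 14 of 17 tested members were positive with a median of 0.79, and without stroke replicate 1, 16 of 17 were positive. None was called, 2 of 15 had an unadjusted p under 0.05 (miR-136-3p and miR-369-3p) against 6.15% of all miRNAs that were higher by this rule, and the groups did not overlap for 3 of 15 against 11.7% of all miRNAs. A miRNA of low level passes the filter more easily when it is high in 1 group, so the count over tested members is a description. Over all 50, the summed level was 0.0683%, 0.0302% and 0.0978% of UMIs after stroke and 0.0303%, 0.0314% and 0.00927% in healthy rats. The lowest stroke library, replicate 2, was just under the 2 highest healthy libraries, so the groups overlapped by this sum.

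miR-143, a miRNA of smooth muscle and other mesenchymal cells, was higher on both arms. miR-143-3p was at 12891, 8807 and 7535 CPM after stroke and at 5160, 2070 and 4843 CPM in healthy rats, with a log2 fold change of 1.28 (standard error 0.48, edgeR adjusted p = 0.213). miR-143-5p was at 138, 79.2 and 39.4 CPM against 28.5, 10.7 and 36.6 CPM (log2 fold change 1.76, standard error 0.60). Neither arm overlapped between groups and neither was called. miR-190a-5p, which lies within Tln2, was at 440, 213 and 281 CPM against 116, 85.0 and 72.0 CPM (log2 fold change 1.78, standard error 0.56, edgeR adjusted p = 0.208).

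miR-217-5p, a miRNA of exocrine pancreas, was at 32.3, 44.7 and 49.5 CPM after stroke and at 5.17, 2.68 and 2.44 CPM in healthy rats. The groups were far apart, but the log2 fold change of 3.55 had a standard error of 1.35 in the model of all plasma groups, and it was not called (edgeR adjusted p = 0.213). In a fit of only the 6 libraries it was called (edgeR adjusted p = 0.0191). Within other groups it varied widely, at 141.8, 25.7 and 1.85 CPM in control rats at 31 days and at 0.931, 0 and 1.40 CPM at 10 days. The neighbouring miRNA of that tissue, miR-216a-5p, which was looked up after the values of miR-217-5p were seen, had a log2 fold change of 1.82 (standard error 1.03) and groups that did not overlap. miR-21-3p had a log2 fold change of 2.34 that rested on 1 library. It was at 16.1, 158 and 11.9 CPM after stroke and 12.1, 4.47 and 19.5 CPM in healthy rats, and without stroke replicate 2 the log2 fold change was 0.23.

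Among muscle miRNAs, all 8 tested members of 13 listed had a positive log2 fold change, with a median of 0.54 and with the same sign under each of the 3 scalings, and none was called. The 8 include miR-1-3p and miR-1b, which had near-equal counts in each library and may share reads. Without stroke replicate 3, 7 of 9 tested members were positive and the median was 0.062, and without stroke replicate 2 the median was 0.83. The limit of the filter given for the Dlk1-Dio3 list also holds for scarce members here, such as miR-208b-3p. The heart miRNAs miR-208a-3p and miR-208b-3p, which share the seed TAAGACG and lie in myosin heavy chain genes, had log2 fold changes of 1.28 (standard error 0.55) and 2.61 (standard error 1.03), and their groups did not overlap. miR-208b-3p was at 13.8, 22.3 and 11.9 CPM against 6.04, 0.895 and 0 CPM. The skeletal muscle miRNAs miR-1-3p, miR-133a-3p and miR-206-3p had log2 fold changes of 0.49, 0.11 and 0.59, all with groups that overlapped. The summed level of the muscle list was 0.274% to 0.654% after stroke and 0.233% to 0.322% in healthy rats, which overlapped, and so did that of 8 muscle mRNAs (0 to 234 CPM against 48.0 to 133 CPM).

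On the lower side, the smallest p belonged to miR-342-3p, which is abundant in T cells and lies within the actin regulator gene Evl. It was at 1700, 2428 and 3008 CPM after stroke and at 6814, 8578 and 6653 CPM in healthy rats. The highest stroke library was far under the lowest healthy library, and the fitted level was 3.09-fold lower after stroke (log2 fold change −1.63, standard error 0.38). It was just outside the threshold (edgeR adjusted p = 0.0587), and it was called with DESeq2 (adjusted p = 0.0118) and when the erythroid miRNAs were left out before scaling (adjusted p = 0.0437). In the plasma of the other stroke groups it was also under the healthy range, from 1938 to 5470 CPM in control rats at 10 and 31 days, with log2 fold changes against healthy of −1.18 (standard error 0.37) and −1.21 (standard error 0.37) that were not called. In brain EVs of the same rats it was at 2041 to 2310 CPM after stroke and 2590 to 3471 CPM in healthy rats (log2 fold change −0.42, standard error 0.18, edgeR adjusted p = 0.108). The scarce partner arm miR-342-5p had 4 UMIs after stroke and 30 in healthy rats, with a ratio of 0.168 (exact 95% counting interval 0.0431 to 0.478).

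miR-150, a miRNA of mature B and T lymphocytes, was lower on both arms. miR-150-5p was at 8214, 10350 and 9674 CPM after stroke and at 28638, 22861 and 22363 CPM in healthy rats. miR-150-3p was at 19.6, 12.2 and 16.5 CPM against 59.5, 60.8 and 155 CPM. The groups did not overlap for either arm, with log2 fold changes of −1.39 (standard error 0.51) and −2.48 (standard error 0.82), and neither was called (edgeR adjusted p = 0.213 and 0.208).

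Over the 14 tested members of the 15 leukocyte miRNAs, 10 had a negative and 4 a positive log2 fold change, with a median of −0.70. The groups did not overlap for 8 that were lower and 3 that were higher, and 6 had an unadjusted p under 0.05, all lower. Over all miRNAs tested, 15.5% were lower and 11.7% higher without overlap, and 10.0% were lower at an unadjusted p. The summed level of the list overlapped, at 6.42% to 9.05% of UMIs after stroke and 6.30% to 11.9% in healthy rats. The overlap came from healthy replicate 2 at 6.30%, and the other healthy libraries were at 11.9% and 10.8%. These shares are without the TMM step, whose factor of 0.697 would raise the values of that library. The members with negative values included miR-155-5p, an inflammation-induced miRNA of activated lymphocytes and macrophages (−1.13, standard error 0.51), miR-146a-5p, which restrains NF-kB signalling (−0.65, standard error 0.30), and miR-142-3p, found in all blood cell lineages (−0.76, standard error 0.49). The 3 that did not overlap and were higher were miR-29a-3p, miR-29b-3p and miR-29c-3p, with log2 fold changes of 0.40 to 0.44, of which miR-29a-3p and miR-29c-3p had near-equal counts in each library and may share reads. In the mRNA libraries of the same plasma EV samples, 5 T cell genes summed to 24.5, 50.4 and 100 CPM after stroke and to 417, 175 and 254 CPM in healthy rats, which did not overlap. Fewer vesicles from lymphocytes and less of these RNAs per vesicle cannot be told apart, and the part that white cell RNA had in the miRNA values was not tested.

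In brain EVs of the same rats, several miRNAs with negative values in plasma were called higher after stroke, among them miR-155-5p and both arms of miR-142 from the leukocyte list. miR-155-5p was higher by 3.30 on the log2 scale (edgeR adjusted p = 0.0107), miR-142-3p by 2.72 (adjusted p = 0.00138) and miR-142-5p, which was at −0.92 in plasma, by 1.86 (adjusted p = 0.0111). Outside the list, miR-15b-3p was higher in brain EVs by 1.61 (edgeR adjusted p = 0.0220) and miR-532-3p by 1.39 (adjusted p = 0.0323). miR-155-5p was at 76.1 to 137 CPM in the brain EVs of stroke rats and at 3.41, 17.03 and 7.01 CPM in those of healthy rats, and miR-142-3p was at 875 to 1149 CPM against 119 to 193 CPM. The difference between the plasma and the brain effect was −4.33 for miR-155-5p (edgeR adjusted p = 0.0612), −3.32 for miR-142-3p (adjusted p = 0.0743), −2.60 for miR-142-5p (adjusted p = 0.0902), −2.65 for miR-15b-3p (adjusted p = 0.143) and −2.16 for miR-532-3p (adjusted p = 0.146), none of which passed the test with the rat as a term. The differences of miR-155-5p and miR-142-3p were called in a fit without the rat term, with only the 12 libraries, and without stroke rat 2 or stroke rat 3.

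Of 13 listed red cell miRNAs 12 were tested, and all 12 had a negative log2 fold change, with a median of −0.94, although with the size factors of DESeq2 or library totals 1 of the 12 was positive, and without healthy replicate 3, 2 of the 12 were and the median was −0.55. None was called. miR-16-5p, common to many blood cells, had the highest mean CPM over the 6 libraries, although let-7a-5p was the top miRNA in stroke replicates 1 and 3 and healthy replicate 2. miR-16-5p was at 79014, 114168 and 71306 CPM after stroke and at 201047, 136906 and 283842 CPM in healthy rats. The groups did not overlap (log2 fold change −1.23, standard error 0.53, edgeR adjusted p = 0.237). The red cell miRNA proper, miR-451-5p, had a log2 fold change of −1.22 (standard error 0.82) and groups that overlapped. The log2 ratio of miR-451-5p to miR-23a-3p (a miRNA that may share reads with miR-23b-3p), a usual measure of red cell lysis, was −2.79 ± 1.28 (SD, n = 3) after stroke and −1.57 ± 1.03 in healthy rats (exact permutation test, two-sided, p = 0.3). The summed level of the list was 8.09% to 15.4% of UMIs after stroke. In healthy rats it was 11.1% in replicate 2 and 22.6% and 28.8% in the others. Hemoglobin mRNA moved the same way in the mRNA libraries of these samples, at 3.31%, 2.54% and 1.62% of counts after stroke and 7.28%, 4.13% and 10.5% in healthy rats, and its part in the miRNA values was not tested.

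miR-25-3p, miR-92a-3p, miR-92b-3p, miR-363-3p and miR-32-5p share the seed ATTGCAC, and all 5 had negative log2 fold changes, from −1.07 to −0.30. miR-25-3p was at 2702, 3944 and 2732 CPM after stroke and at 5499, 7440 and 6786 CPM in healthy rats, without overlap (−1.07, standard error 0.40). Its neighbour miR-106b-3p, which like it lies within the replication gene Mcm7, was at 87.6, 120 and 95.4 CPM against 197, 322 and 264 CPM (−1.37, standard error 0.40, edgeR adjusted p = 0.135). The 5 miRNAs of the seed AAAGTGC (miR-17-5p, miR-20a-5p, miR-20b-5p, miR-93-5p and miR-106b-5p) were also all negative, from −1.27 to −0.59. Over the listed members of the miR-17-92 cluster and its paralogs, which drive proliferation of blood progenitors, 11 of 13 tested were negative. Their median was −0.84, and none was called. The list leaves out miR-92a-3p, miR-25-3p, miR-363-3p and miR-20b-5p, which were placed in the erythroid list. Its summed level overlapped between groups, at 0.324% to 0.817% against 0.383% to 1.01%, and is not that of the whole family. Outside it, miR-92a-3p alone had a mean of 5627 CPM after stroke and 10453 CPM in healthy rats, without overlap. Within it, miR-19a-3p and miR-19b-3p had near-equal counts and may share reads.

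**Figure D5:**
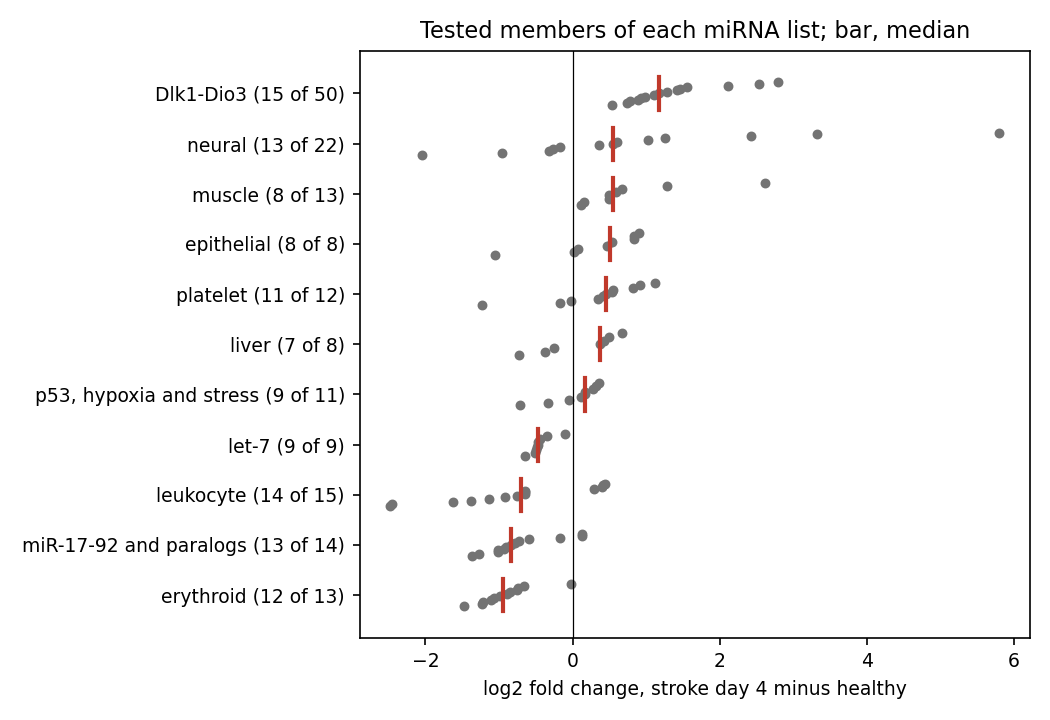
Log2 fold change (control group at 4 days minus healthy) of each tested member of 11 miRNA lists, with the number tested of the number listed; red bars are medians. Medians run from −0.94 for the erythroid list to 1.17 for the Dlk1-Dio3 list, and the single point past 5 on the right is miR-9a-3p.

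Both arms of miR-140, a miRNA of cartilage and mesenchymal cells, had lower levels without overlap. miR-140-5p was at 151, 179 and 160 CPM after stroke and at 394, 360 and 364 CPM in healthy rats (−1.19, standard error 0.34, edgeR adjusted p = 0.135). miR-140-3p was at 793, 1709 and 672 CPM against 2460, 1744 and 3941 CPM (−1.36, standard error 0.51). The groups of the 3p arm came close, at 1709 and 1744 CPM. The remaining members of the 12 with the smallest p on the lower side were miR-149-5p, miR-15b-3p, miR-423-5p, miR-532-3p and miR-503-3p, with log2 fold changes of −1.44 to −0.90, groups that did not overlap and edgeR adjusted p values of 0.208 to 0.213. On the higher side miR-1843b-3p and miR-1843a-3p, which share the seed CTGATCG, were at 1.04 and 1.02.

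The summed levels of the let-7, liver and platelet lists overlapped between groups. The let-7 family, regulators of differentiation that share the seed GAGGTAG, had 9 of 9 members with a negative log2 fold change and a median of −0.47, but 2 of the 9 were positive with library totals, and without healthy replicate 2 the median was 0.0012 and 5 of 9 were positive. The family members differ by few bases and reads may be shared between them. The liver list had 4 positive and 3 negative members and a median of 0.37 (6 and 1 with library totals), and the median was 0.11 without healthy replicate 3, 0.23 without healthy replicate 2 and 0.65 without healthy replicate 1, with miR-122-5p at 42110, 46236 and 96022 CPM against 77396, 144420 and 17218 CPM. Liver mRNAs also overlapped, from 144 to 19547 CPM after stroke and 2043 to 3939 CPM in healthy rats. The platelet list had 8 positive and 3 negative members and a median of 0.46 (10 and 1 with library totals, and a median of 0.16 without stroke replicate 2), with the endothelial and platelet miRNA miR-126a-3p at 0.41 (standard error 0.68) and miR-223-3p at 0.53 (standard error 0.43). Platelet mRNAs overlapped, at 822 to 4491 CPM against 957 to 13454 CPM. Epithelial miRNAs had 7 positive and 1 negative member and a median of 0.50, with a summed level of 0.252% to 0.583% after stroke against 0.220% to 0.281% in healthy rats, which overlapped. Without stroke replicate 3 the epithelial list had 4 positive and 4 negative members and a median of −0.054. The p53, hypoxia and stress list had 6 positive and 3 negative members and a median of 0.16, which was 0.013 without healthy replicate 2, 0.014 without stroke replicate 2, 0.041 without stroke replicate 1, 0.064 without healthy replicate 1 and 0.32 without healthy replicate 3. Its summed level was 1.32% to 1.64% after stroke and 0.787% to 1.22% in healthy rats, which did not overlap. These shares are without the TMM step, and 0 of the 9 tested members had groups that did not overlap. In this list miR-103-3p and miR-107-3p had near-equal counts in each library, so the sum may hold the same reads for both.

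The study names several miRNAs for plasma after stroke, of which a list of 10 was taken. It named miR-34a-5p, miR-542-3p, miR-144-5p and miR-24-3p for their correlation between brain and plasma EVs. The others were named for a direction shared with plasma EVs of patients with stroke. All 10 were picked by the study on these samples and are not independent evidence. Of the 9 that were tested, 3 had a positive and 6 a negative log2 fold change at 4 days, and none was called. miR-34a-5p and miR-542-3p were at 0.31 (standard error 0.32) and 0.43 (standard error 0.36), and miR-24-3p was at −0.021 (standard error 0.24) with a sign that changed with the scaling. The study describes all of these as higher in plasma EVs after stroke. In brain EVs miR-34a-5p and miR-542-3p were called higher, with log2 fold changes of 1.23 and 1.49 (edgeR adjusted p = 0.0107 and 0.0220). There miR-24-3p at 0.25 and miR-144-5p at −0.13 were not called. miR-15b-3p, miR-155-5p, miR-423-5p and miR-532-3p were lower without overlap, from −1.37 to −0.90, with edgeR adjusted p values of 0.213 to 0.265. These are 4 of the 9, against 15.5% of all miRNAs tested that were lower without overlap. miR-144-5p was at −0.99 (standard error 0.88) and miR-29a-5p at 1.39 (standard error 0.73). miR-181b-1-3p had 8 UMIs over the 6 libraries and was not tested.

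The sets named for their p also differed in base composition. The median GC content was 45.5% for the 12 higher miRNAs, 55.5% for the 12 lower ones and 47.6% for all 309. Across the 309 miRNAs, which share libraries and depth, Pearson r between log2 fold change and GC content was −0.24 and Spearman's rho was −0.25. Lengths were 18 to 25 bases, with a median of 22 in each set. For 12 pairs of near-identical miRNAs, such as miR-103-3p and miR-107-3p or miR-29a-3p and miR-29c-3p, the UMI counts differed by at most 5% (plus 1 UMI) in each of the 6 libraries, so that reads may have been counted for both. Only miRNAs with at least 100 UMIs over the 6 libraries were searched for pairs. Both arms of miR-9a and of miR-150 and miR-342-3p were in none of them. miR-342-5p, with 34 UMIs, was not searched.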

How the data were processed

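Plasma EVs were isolated by size exclusion chromatography, and small RNA libraries carried UMIs. Per the study's methods, the authors filtered reads to lengths of 18 to 30 nt, discarded other RNA classes and identified miRNAs against miRBase, with further predicted ones. The submitters' notes name the build Rnor_6.0. The deposited miRNA counts are UMI counts without normalization, and the deposited TPM values are the authors' depth-normalised version of them. The authors' mRNA counts of the same 6 samples are reads per gene. Each library is 1 rat, and samples were grouped by their labels. Known miRNAs entered edgeR (4.0.16, R 4.3.3) with TMM scaling, filterByExpr and the quasi-likelihood test, in 1 model of the 7 plasma groups, tested first on simulated data. Brain and plasma were compared with the rat as a term, matched by replicate number within a group. Alternatives were DESeq2 1.42.0, limma 3.58.1 on log2(TPM + 1) or log2(TPM + 0.1), other scalings, filters and library sets, and each library left out.

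Named are the called miRNAs, filled up to 12 per direction by the smallest p, the 10 most abundant, 10 that the study names, list members (erythroid, platelet, leukocyte, liver, muscle, neural, let-7, miR-17-92, Dlk1-Dio3, epithelial, stress) and miRNAs that share a seed or hairpin with these. The members and lists were chosen with earlier results of these data known, and the mRNA lists were written last.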

Additional observations from a re-analysis of the deposited data

Results flagged for a closer look

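miR-9a-3p was set apart because its change at 4 days differed between the tissues. The plasma effect minus the brain effect was 6.15 on the log2 scale (edgeR, interaction with the rat as a term, adjusted p = 0.00107). All 3 stroke rats were above all 3 healthy rats in plasma, and the groups overlapped in brain. The value was 5.62 to 6.16 without any one of the 6 rats, with adjusted p values of 0.00394 to 0.0220. For this flag, no rule for single outlying samples was applied within groups of 3.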

How the results depend on the processing

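Called miRNAs numbered 1 higher and 0 lower. This became 3 and 1 with DESeq2, 3 and 0 with only the 6 libraries, 0 and 0 with limma on log2(TPM + 0.1) or with predicted miRNAs kept, 1 and 1 with the erythroid list left out, and 19 and 31 at an unadjusted p. Leaving out each library gave 0 to 1 higher and 0 lower. At an unadjusted p, 19 higher and 31 lower became 28 and 20 with the size factors of DESeq2, 34 and 9 with library totals, 31 and 23 with DESeq2, 30 and 10 with limma on log2(TPM + 1), 29 and 10 with log2(TPM + 0.1), 37 and 22 without a filter, and 54 and 95 with predicted miRNAs kept (1298 features). Leaving out each library gave 15 to 23 higher and 12 to 26 lower, the lowest without stroke replicate 1. The calls of the tissue difference, 1 and 0, became 11 and 6 without the rat term, 4 and 17 with only the 12 libraries, and 1 and 0 to 3 without each rat. The cause of these shifts was not tested. Replicate numbers did not pair the rats, whose deviations correlated at 0.217, −0.428 and −0.535 for equal numbers. With the replicate block, 1 was called higher and 0 lower, with 16 and 28 at an unadjusted p, of which 16 and 27 were shared with the fit without it. Keeping 1 miRNA of each near-identical pair, an alternative added after the data were seen, gave 1 and 0.

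Among the named miRNAs, the log2 fold changes that changed sign belonged to miRNAs that were not called. With predicted miRNAs kept, let-7a-5p, let-7c-5p, let-7f-5p, let-7b-5p and let-7e-5p were at 0.65, 0.63, 0.63, 0.66 and 0.63, miR-122-5p at 0.63, miR-142-3p at 0.17, miR-144-5p at 0.055, miR-24-3p at 1.03, miR-532-3p at 0.038 and miR-503-3p at 0.10. Leaving out each library gave −0.81 to 0.074 for let-7a-5p, −0.84 to 0.30 for let-7c-5p, −0.81 to 0.45 for let-7b-5p, −0.85 to 0.13 for let-7e-5p, −0.86 to 0.38 for miR-122-5p and −0.053 to 0.96 for miR-126a-3p, with the change of sign without healthy replicate 2. It gave −1.49 to 0.029 for miR-144-5p, with the change of sign without healthy replicate 3, and −0.19 to 0.090 for miR-24-3p, which was also at 0.050 without healthy replicate 1. With limma, both pseudocounts gave 0.052 for let-7c-5p, 0.14 for let-7b-5p, 0.35 for miR-122-5p and 0.33 for miR-24-3p. With library totals miR-122-5p was at 0.031 and miR-24-3p at 0.29, and miR-24-3p was at 0.12 with DESeq2 or its size factors and at 0.071 without a filter. In the shallowest library 3 UMIs correspond to 7.32 CPM before the TMM step.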
